A study of Homo sapiens with 9 samples.

Results

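The genes described here encode proteins of the interstitial extracellular matrix: the fibrillar collagen chains COL1A1, COL1A2, COL3A1, COL5A1 and COL5A2, the collagen VI chains COL6A1, COL6A2 and COL6A3, fibronectin (FN1) and the TGF-beta-induced protein TGFBI. Every probe set annotated to these 10 genes alone was taken, which gave 37 of 54675 probe sets on the array. A probe set is a group of short oligonucleotides that together report 1 transcript or a group of related ones. Of the 37, 5 have an identifier ending in _x_at (3 of FN1, 1 of COL1A1 and 1 of COL3A1), which marks possible cross-hybridization, and their values are called uncertain below.

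RNA came from SK-N-AS, an established human neuroblastoma line. Per the labels, one series of cells received the RE-EX1 expression construct, which carries full-length human NRSF, a second received HZ4, which carries a truncated NRSF, and the remaining one was untreated. NRSF is a zinc-finger repressor best known for holding neuronal genes silent outside neurons. Each of the 3 series was sampled at 0, 24 and 48 h, so that the study could set each time against its own 0 h baseline, and each of the 9 groups holds 1 array. The series text speaks of triplicate samples over several batches, but no label gives a batch or a replicate, and no empty-vector series is labelled, so that construct and delivery cannot be told apart.

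Collagen chains fold in threes into a triple helix in the endoplasmic reticulum, are trimmed by proteinases after secretion and are then cross-linked. Type I and III collagens form the bulk of interstitial fibrils, type V chains join these fibrils and limit their width, and type VI forms beaded microfibrils near the cell surface. Fibronectin is a secreted dimer that integrins stretch into fibrils on which collagen is laid down, and TGFBI is a secreted protein that binds collagens and integrins. In neuroblastoma, abundant matrix transcripts are known from cells in a mesenchymal state, as opposed to a sympathetic (adrenergic) state.

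The stretches upstream of the start sites were available in RefSeq (GRCh38.p14) for 5 of the 10 genes: FN1, TGFBI, COL6A3, COL6A2 and COL5A1. Those of FN1, TGFBI and COL6A3 are shown because these 3 genes had large falls with time, and each run is the 250 bases before the annotated start, 5′ to 3′ on the gene's strand. Capitals mark matches on either strand to any of the following short motifs, and touching or overlapping matches run together. The letters TATAA were searched as the core of the TATA box, which positions the transcription machinery. The CCAAT box was searched by the letters of its name. The cyclic AMP response element, bound by CREB family factors, was searched as TGACGTCA. The letters GGGCGG stood for the GC box, which Sp family factors bind. The AP-1 element, bound by FOS and JUN family dimers, was searched as TGANTCA.
FN1, chr2:215436069-215436318, minus strand: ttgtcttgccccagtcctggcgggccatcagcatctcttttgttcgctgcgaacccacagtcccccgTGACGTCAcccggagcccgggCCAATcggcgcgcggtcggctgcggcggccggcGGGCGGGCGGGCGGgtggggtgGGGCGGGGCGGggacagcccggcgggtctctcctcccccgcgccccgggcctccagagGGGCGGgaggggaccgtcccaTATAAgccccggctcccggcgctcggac
TGFBI, chr5:136028738-136028987, plus strand: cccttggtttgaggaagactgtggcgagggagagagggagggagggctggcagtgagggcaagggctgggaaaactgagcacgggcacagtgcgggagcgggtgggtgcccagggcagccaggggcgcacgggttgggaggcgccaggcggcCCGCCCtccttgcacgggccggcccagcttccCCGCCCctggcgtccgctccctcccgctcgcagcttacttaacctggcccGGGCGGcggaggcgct
COL6A3, chr2:237414165-237414414, minus strand: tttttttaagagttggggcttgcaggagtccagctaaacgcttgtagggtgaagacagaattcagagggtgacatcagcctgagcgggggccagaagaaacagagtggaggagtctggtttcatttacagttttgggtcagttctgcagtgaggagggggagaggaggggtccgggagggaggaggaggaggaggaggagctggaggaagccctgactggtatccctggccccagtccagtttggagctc
The FN1 window holds a TATA box, a CCAAT box, a cyclic AMP response element and 6 GC boxes, overlapping ones counted. The TGFBI window holds 3 GC boxes and none of the other motifs, and the COL6A3 window holds no match to any of them. Among 35116 RefSeq windows of the same length, 18.9% hold the TATA box, 32.0% the CCAAT box, 1.65% the cyclic AMP response element, 42.6% the GC box and 6.57% the AP-1 element. The windows also differ in base composition, with a GC content of 76.4% for FN1, 72.8% for TGFBI and 56.0% for COL6A3, against a median of 58.0% over all windows. These matches describe the letters of each window and do not show that a factor binds there.

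Of the 37 probe sets, 27 had a mean log2 signal above the filter at 4.2 (the 40th percentile of all probe sets), and these 27 cover 9 of the 10 genes. All 5 _x_at probe sets are among the 27. The 10 probe sets under the filter had signals between 1.094 and 47.65, in arbitrary units scaled by the authors. COL1A2, the second chain of type I collagen, had none of its 3 probe sets above the filter and read between 1.3 and 44.38 on the 9 arrays. COL5A2, the second chain of type V, had 1 of 2, with signals between 1.711 and 54.19. The brightest COL1A1 probe set read between 2199 and 5482, but signals of different probe sets cannot be compared as amounts of RNA.

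**Figure D1:**
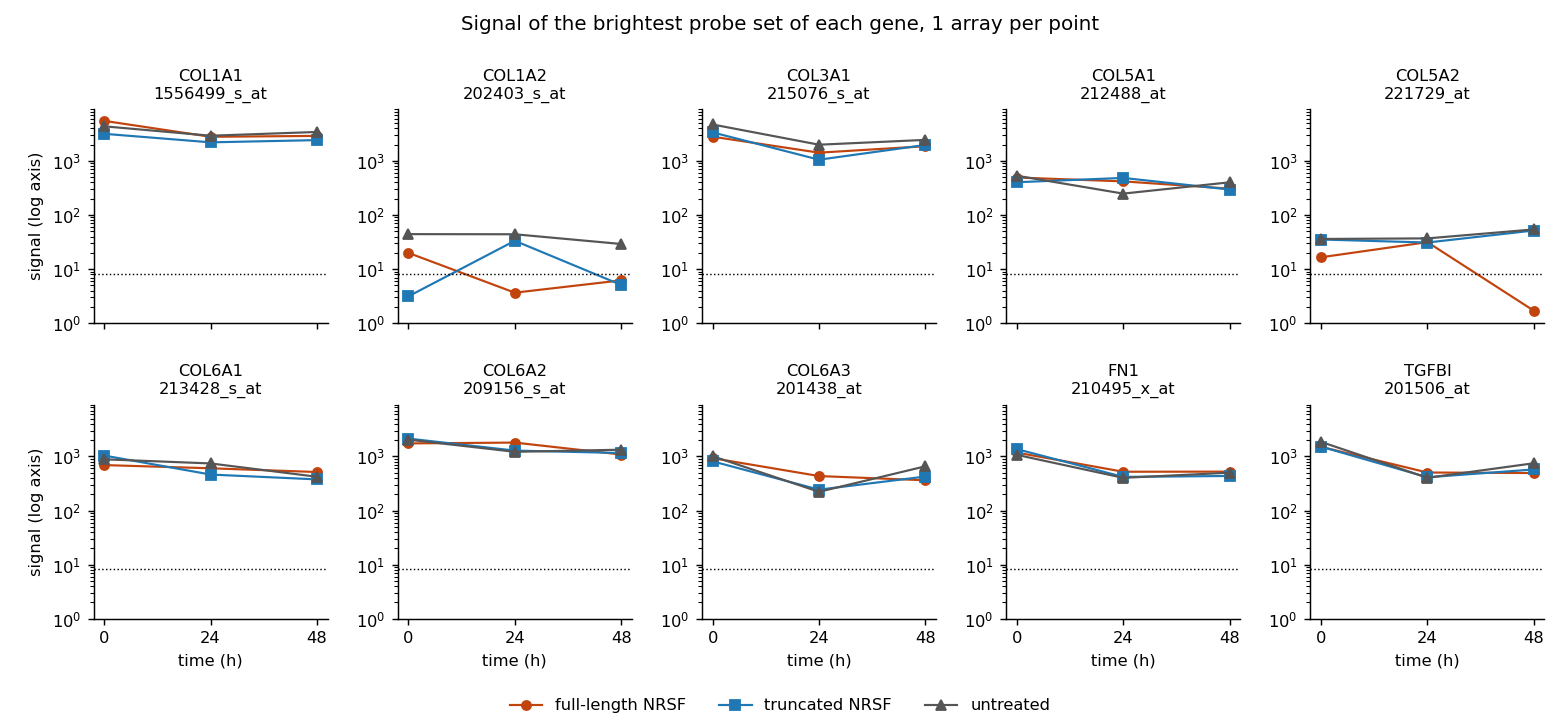
Signal of the brightest probe set of each of the 10 genes (log axis, arbitrary units scaled by the authors) on each of the 9 arrays, against hours, with 1 line for each series and a dotted line at the floor of 8.266. TGFBI, FN1, COL3A1, COL6A3 and COL1A1 are lower on all 3 arrays at 24 h than on any 0 h array. COL1A2 and COL5A2 are dim, at or below the floor on 4 and 1 of the 9 arrays.

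Most matrix probe sets were lower at 24 h than at 0 h in each series, 23 of 27 in the full-length, 21 in the truncated and 24 in the untreated series. In that order, the median log2 differences of the 27 were −0.74, −0.74 and −1.02, against −0.06, 0.08 and −0.06 over all probe sets tested. At 24 h, 12 of the 27 probe sets fell and 0 rose at an adjusted p under 0.05 (limma, Benjamini-Hochberg over all 32768 probe sets tested), while 5.74% of all probe sets tested fell and 5.73% rose. The 12 come from 5 genes, TGFBI, FN1, COL3A1, COL6A3 and COL1A1, and probe sets of 1 gene are not independent. The genes were also chosen with earlier results of these data known, so an excess over the share of all probe sets is a description and not a test. The median difference over the 27 was −0.69 on the log2 scale, against −0.02 over all probe sets. In 12 of the 27, from 6 genes, all 3 arrays at 24 h lay below all 3 at 0 h, which held for 13.8% of all probe sets. At 48 h, 13 of the 27 from 8 genes fell and 0 rose, where 2.63% of all probe sets fell and 2.83% rose, and the median was −0.77 against −0.03. In 15 of the 27, from 7 genes, all 3 arrays at 48 h lay below all 3 at 0 h, against 12.9% of all probe sets. Both comparisons share the 0 h arrays, and 10 probe sets were called in both. In bulk RNA, fewer cells of a type and less RNA per cell cannot be told apart. The p-values rest on 3 arrays per time, and no series has a replicate array at any time. The series term removes constant gaps in level, so the residual (4 degrees of freedom) reflects how unevenly the 3 series changed. limma also pulls the variance of each probe set towards that of all probe sets tested at a similar signal. The p-values and standard errors thus rest partly on other probe sets. Without the trend that limma fits between variance and mean, 4 matrix probe sets were called at 24 h and 0 at 48 h, and with no filter on low signals 7 and 4 were. Leaving out a series cut the calls over all probe sets too, in either direction. At 24 h 11.5% were called, and 5.64%, 6.11% and 7.42% without the full-length, the truncated or the untreated series. At 48 h it was 5.46%, and then 1.87%, 2.74% and 2.51%. A call that ended when a series was left out thus does not by itself mark dependence on that series.

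COL1A1, the main chain of type I collagen, fell at both times. Its brightest probe set (1556499_s_at) had signals of 5482, 2784 and 2892 at 0, 24 and 48 h in the full-length series, 3161, 2199 and 2418 on the truncated arrays, and 4346, 2914 and 3419 on the untreated arrays. Each 24 h array lay below every 0 h array, while the 48 h range overlapped the 0 h range. The log2 difference was −0.69 ± 0.15 (SE, n = 3 arrays per time) at 24 h (limma adjusted p = 0.0042) and −0.55 ± 0.15 at 48 h (limma adjusted p = 0.034). A second probe set, 202310_s_at, fell by 0.88 ± 0.17 at 24 h and by 0.98 ± 0.17 at 48 h (limma adjusted p = 0.0023 and 0.0021). The other 3 COL1A1 probe sets did not pass, and the uncertain 217430_x_at had the opposite sign, 0.57 at 24 h and 0.45 at 48 h (limma adjusted p = 0.44 and 0.62). The call of the brightest probe set at 24 h ended without the full-length series (−0.55, adjusted p = 0.067), and that at 48 h ended without any 1 of the full-length, truncated or untreated series (−0.37, −0.63 and −0.65, adjusted p = 0.32, 0.081 and 0.082). With the mean of all COL1A1 probe sets, the differences were −0.36 at 24 h and −0.43 at 48 h and neither passed.

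COL3A1, which forms type III collagen from 3 like chains, fell at both times. Its brightest probe set (215076_s_at) read 2797, 1417 and 1866 at 0, 24 and 48 h in the full-length series. It read 3359, 1051 and 1966 on the truncated arrays, and 4697, 1989 and 2440 on the untreated arrays. The lowest value of each series was its 24 h array, and no array at 24 or 48 h reached the lowest 0 h array. The difference was −1.30 ± 0.15 at 24 h (SE, limma adjusted p = 1.6e-05), and the mean signal was 1490 ± 473 at 24 h and 3620 ± 976 at 0 h (SD, n = 3 each). At 48 h it was −0.77 ± 0.15 (limma adjusted p = 0.0057), a call that ended without the untreated series (−0.68, adjusted p = 0.077) and with the mean of all COL3A1 probe sets (−0.79, adjusted p = 0.08). The probe set 211161_s_at fell by 0.92 ± 0.18 at 48 h (limma adjusted p = 0.0051), and this call too ended without the untreated series (−0.81, adjusted p = 0.077). All 4 COL3A1 probe sets above the filter fell at 24 h, with differences of −1.40 to −1.0, the uncertain 201852_x_at at −1.0 among them. At 48 h 201852_x_at stood at −0.40 (limma adjusted p = 0.25) and 232458_at at −1.03 ± 0.36 (adjusted p = 0.11), and neither passed. The 24 h difference of 232458_at was −1.40 ± 0.36 at 24 h (limma adjusted p = 0.015), a call that ended without the full-length series, without the truncated series, without the untreated series and without the truncated 24 h array (adjusted p = 0.095, 0.066, 0.075 and 0.061).

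Of type V collagen, COL5A1 gave 3 probe sets above the filter and none was called at 24 h. Its brightest, 212488_at, read 492.5, 418.2 and 306.9 at 0, 24 and 48 h in the full-length series, 403.1, 484.5 and 295.4 on the truncated arrays, and 532.3, 248.5 and 401.8 on the untreated arrays. The series differ in the order of their 24 and 48 h arrays, and the truncated 24 h array lies above its own 0 h array. The differences were −0.36 ± 0.23 at 24 h and −0.51 ± 0.23 at 48 h (SE, limma adjusted p = 0.38 and 0.23). A dimmer probe set, 212489_at, fell by 1.22 ± 0.27 at 48 h (limma adjusted p = 0.011), a call that ended without the full-length or the truncated series (−1.19 and −0.96, adjusted p = 0.11 in both). COL5A2, close to the floor, gave 0.26 ± 0.66 at 24 h and 0.04 at 48 h (limma adjusted p = 0.87 and 0.98), with a 95% interval of −1.13 to 1.65 at 24 h. COL3A1 and COL5A2 are neighbours on chromosome 2 with 0 protein-coding genes between them in the RefSeq annotation.

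The brightest probe sets of all 3 collagen VI chains fell at 48 h, and that of COL6A3 also at 24 h. COL6A3, whose product is the largest chain of type VI, read 925.9, 432.9 and 361.4 at 0, 24 and 48 h in the full-length series, 808.7, 242.6 and 423.5 on the truncated arrays, and 1007, 221.3 and 655 on the untreated arrays. All 24 h arrays lay below all 0 h arrays, and so did all 48 h arrays. Its level was 299 ± 117 at 24 h and 914 ± 99.6 at 0 h (SD, n = 3 each), a log2 difference of −1.67 ± 0.23 (SE, limma adjusted p = 9.4e-05). At 48 h the difference was −0.97 ± 0.23 (limma adjusted p = 0.018), which no longer passed without the full-length or the truncated series (−0.78 and −0.99, adjusted p = 0.11 and 0.08). In the fit on the mean of all probe sets of each gene it did not pass at 48 h either (−0.97, adjusted p = 0.084). As a share of its own 0 h array, the 24 h signal was 46.8% in the full-length, 30% in the truncated and 22% in the untreated series. At 48 h these shares were 39%, 52.4% and 65.1%, so the order of the 3 series was turned round between the times.

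COL6A1 and COL6A2 lie next to each other on chromosome 21 with 0 protein-coding genes between them. Their brightest probe sets passed at 48 h and not at 24 h. The brightest COL6A1 probe set (213428_s_at) read 690.1, 602.2 and 513.5 at 0, 24 and 48 h in the full-length series, 1034, 461.4 and 375.4 on the truncated arrays, and 882.4, 740 and 419.9 on the untreated arrays. It fell by 0.99 ± 0.20 at 48 h (SE, limma adjusted p = 0.0054), and its difference at 24 h was −0.54 ± 0.20 (adjusted p = 0.088). COL6A2 (209156_s_at) read 1734, 1796 and 1081 in the full-length series, 2128, 1278 and 1153 on the truncated arrays, and 2034, 1213 and 1327 on the untreated arrays. The full-length 24 h array of COL6A2 was the only one of the 3 at that time not below its own 0 h array. COL6A2 fell by 0.73 ± 0.17 at 48 h (limma adjusted p = 0.014) and stood at −0.48 ± 0.17 at 24 h (adjusted p = 0.075). The dimmer probe sets above the filter did not pass at 48 h. For COL6A1, 212091_s_at, 212937_s_at and 212938_at stood at −1.34, −0.23 and −1.57 (limma adjusted p = 0.085, 0.93 and 0.26). For COL6A2, 213290_at stood at −0.23 (limma adjusted p = 0.86). Without the truncated series both 48 h calls ended, with COL6A1 at −0.75 (adjusted p = 0.057) and COL6A2 at −0.65 (adjusted p = 0.1). When the probe sets of each gene were averaged, both 48 h calls ended too, at −0.57 for COL6A1 (adjusted p = 0.45) and −0.48 for COL6A2 (adjusted p = 0.099). Without the full-length series COL6A2 passed at 24 h as well (−0.74, adjusted p = 0.022). The change between 24 and 48 h itself was −0.45 ± 0.20 for COL6A1 (adjusted p = 0.28) and did not pass.

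FN1 fell at both times in 4 of its 6 probe sets above the filter. The brightest, 210495_x_at (uncertain), read 1172, 519.7 and 522.3 at 0, 24 and 48 h in the full-length series, 1359, 417.6 and 434 on the truncated arrays, and 1066, 401 and 499.1 on the untreated arrays. The brightest probe set not ending in _x_at, 212464_s_at, read 988.7, 350.9 and 415.3 in the full-length series, 898.2, 376.8 and 363.4 on the truncated arrays, and 866.6, 372.3 and 426.1 on the untreated arrays. In both, every array at 24 and 48 h lay below every array at 0 h. For 212464_s_at the mean was 367 ± 13.8 at 24 h and 918 ± 63.4 at 0 h (SD, n = 3 each), a log2 difference of −1.32 ± 0.16 (SE, limma adjusted p = 2.5e-05), and at 48 h it was −1.19 ± 0.16 (adjusted p = 0.00019). The 3 uncertain probe sets gave −1.43 to −1.73 at 24 h and −1.30 to −1.87 at 48 h, all of them called. The other 2 FN1 probe sets above the filter had signals between 1.405 and 78.24 and were not called, and with the mean of all FN1 probe sets the 48 h difference was −0.64 (adjusted p = 0.11).

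TGFBI had the largest fall of the 9 genes at 24 h among their brightest probe sets. Its 1 probe set, 201506_at, read 1499, 503.2 and 491.6 at 0, 24 and 48 h in the full-length series, 1510, 411 and 572.3 on the truncated arrays, and 1850, 401.9 and 745.5 on the untreated arrays. The groups did not overlap, with 745.5 the highest value after 0 h and 1499 the lowest at 0 h. The 24 h signal was 33.6% of the 0 h signal in the full-length, 27.2% in the truncated and 21.7% in the untreated series. The fitted difference was −1.89 ± 0.17 at 24 h (SE, limma adjusted p = 6.3e-07) and −1.44 ± 0.17 at 48 h (adjusted p = 4.5e-05). At 24 h the call held in all 14 alternative settings tried, with differences of −2.04 to −1.73. The 48 h call held in 12 of the 14 and was lost with no filter on low signals and without the variance trend.

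**Figure D2:**
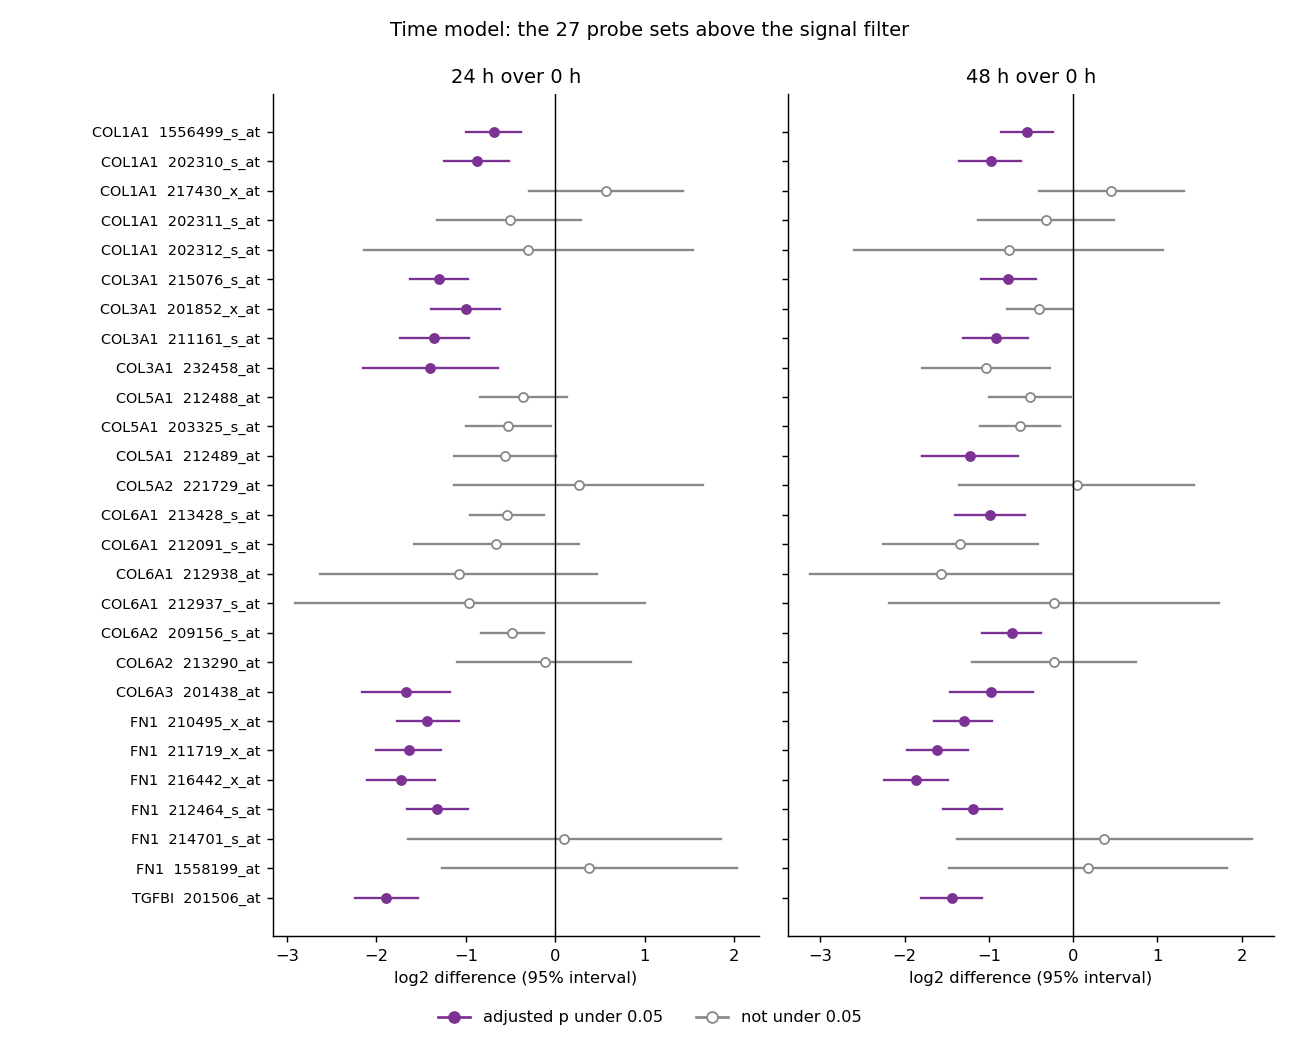
Log2 difference of each of the 27 probe sets above the filter at 24 h and at 48 h over 0 h, from the limma fit, with 95% intervals, grouped by gene. Filled points passed the test: at 24 h they are 2 of COL1A1, 4 each of COL3A1 and FN1, and those of COL6A3 and TGFBI. At 24 h the intervals of COL5A2 and of the dimmer FN1 and COL6A1 probe sets span 0.

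Between 24 and 48 h, 0 of the 27 probe sets passed the test, where 2.35% of all probe sets did (limma, smallest adjusted p of the 27 0.077). An unadjusted limma p under 0.05 was held by 7 of the 27 and by 5004 of all 32768 probe sets tested. The 7 went in both directions. Above 0 were 3 COL3A1 probe sets, the brightest at 0.53 ± 0.15 (SE), COL6A3 at 0.70 ± 0.23 (adjusted p = 0.13) and TGFBI at 0.45 ± 0.17 (adjusted p = 0.20). Below 0 were COL5A1 212489_at at −0.66 ± 0.27 (adjusted p = 0.24) and COL6A1 213428_s_at at −0.45 ± 0.20 (adjusted p = 0.28). Of the 27, 14 were lower at 48 h than at 24 h, with a median of −0.10. Without the full-length series COL6A3 passed, at 1.18 (adjusted p = 0.023). FN1 at 0.13 ± 0.17 (adjusted p = 0.78) and COL1A1 at 0.14 (adjusted p = 0.71) were nearer to 0.

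Matrix probe sets at least 2-fold below their own 0 h array were counted in each series. At 24 h there were 9 of 27 in the full-length, 13 in the truncated and 14 in the untreated series, with 13%, 12.9% and 12.2% of all probe sets tested. At 48 h there were 11 in the full-length, 12 in the truncated and 12 in the untreated series, with 12.2%, 11.1% and 13.5% of all probe sets. These single-array counts have no test.

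The fit that asks whether a construct changed the 24 and 48 h signals beyond the untreated course called no matrix probe set. For full-length NRSF against untreated, 0 of 27 passed (limma, 0.0153% of all probe sets called). For truncated NRSF against untreated, 0 of 27 passed (0.0366% of all called), and for full-length against truncated 0 of 27 passed (0.0153% of all called). In the same order, 1, 3 and 5 of the 27 had an unadjusted limma p under 0.05. Of all 32768 probe sets tested, 1307, 2131 and 1864 had one. Over the brightest probe sets of 8 genes, COL5A2 left out for its low signal, the differences lay between −0.49 and 0.37 for full-length against untreated, between −0.65 and 0.66 for truncated against untreated, and between −0.50 and 1.0 for full-length against truncated. The 95% intervals of these reached from −1.12 to 1.29, from −1.40 to 1.66 and from −1.36 to 1.75. The widest gap was that of COL6A1 for full-length against truncated, 1.0 ± 0.36 (SE, limma adjusted p = 0.71). The second COL6A1 probe set above the filter, 212091_s_at, gave 2.58 ± 0.75 for full-length against truncated (limma adjusted p = 0.51) and −2.04 ± 0.75 for truncated against untreated (adjusted p = 0.58). Its signals were 97.14, 140.5 and 71.51 at 0, 24 and 48 h in the full-length series, 171.2, 34.9 and 24.89 on the truncated arrays, and 165.6, 142.7 and 95.86 on the untreated arrays.

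**Figure D3:**
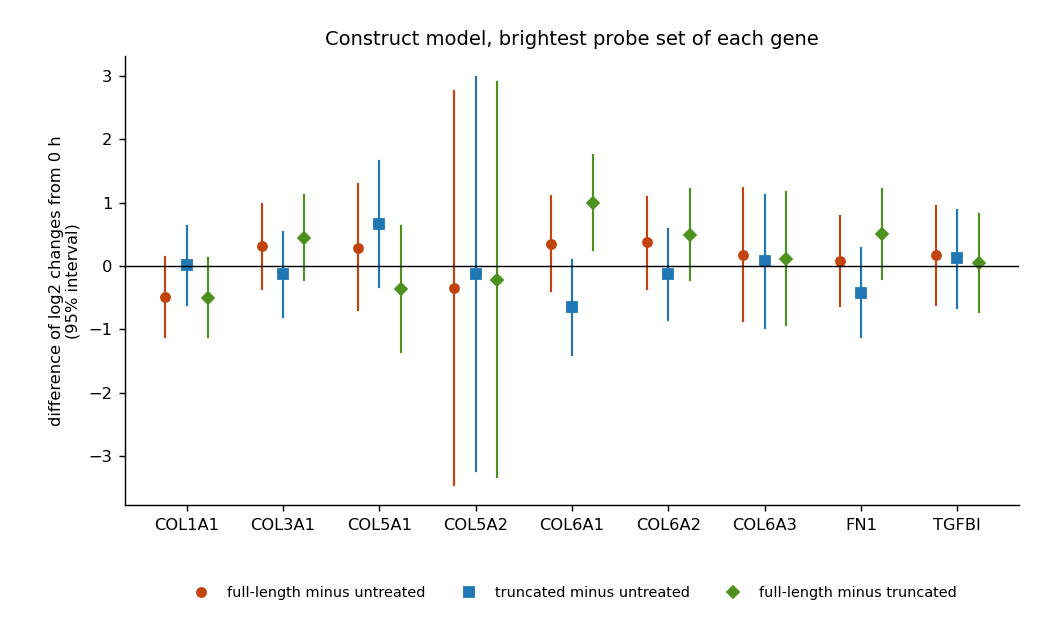
Change of each gene's brightest probe set at 24 and 48 h net of its 0 h array, as the log2 difference between full-length NRSF and untreated, truncated NRSF and untreated, and full-length and truncated NRSF, with 95% intervals from the limma fit. The interval of COL6A1 for full-length against truncated lies above 0 and the others span it.

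Direct comparison of arrays at the same hour adds no replicate. Between the full-length and untreated arrays, 6, 3 and 7 of 27 probe sets at 0, 24 and 48 h were at least 2-fold apart, with 18.9%, 18.6% and 20.4% of all probe sets. Between the truncated and untreated arrays the numbers were 3, 2 and 6, with 17%, 22.7% and 19%. Between the full-length and truncated arrays they were 6, 4 and 5, with 19.6%, 21.9% and 18.1%.

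The genes that build, modify or bind the same matrix were set beside these in 4 lists, with the brightest probe set standing for a gene. These lists too were chosen with earlier results of these data known. Over all 13804 genes above the filter, 7.27% fell and 7.31% rose at 24 h, and 3.32% fell and 3.85% rose at 48 h. Of 24 other collagen genes above the filter (33 on the array), 3 fell and 0 rose at 24 h; their median was −0.18. COL4A5, a basement membrane chain, fell by 1.19 ± 0.17 (limma adjusted p = 0.00014) and COL18A1, a heparan sulphate carrying collagen, by 1.2 ± 0.36 (adjusted p = 0.035). COL12A1, which decorates fibrils, stood at −1.41 ± 0.84 (adjusted p = 0.33), and COL25A1, a transmembrane collagen, at 1.19 ± 0.67 (adjusted p = 0.30). At 48 h, 4 of the 24 fell, beside 3.32% of all genes, and 2, 2 and 3 did with the full-length, the truncated or the untreated series left out. The COL18A1 call at 24 h ended without the full-length, the truncated or the untreated series (adjusted p = 0.17, 0.18 and 0.094).

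Of 24 genes of collagen processing and crosslinking above the filter (27 on the array), 9 fell and 0 rose at 24 h; their median was −0.60. PCOLCE, which speeds the cleavage of procollagen ends, fell by 1.12 ± 0.15 (limma adjusted p = 8.2e-05), and LOXL1, a lysyl oxidase family enzyme, by 0.82 ± 0.25 (adjusted p = 0.037). ADAMTS2, a procollagen N-proteinase, stood at −2.06 ± 0.68 at 24 h (adjusted p = 0.058) and fell by 2.86 at 48 h (adjusted p = 0.017). P3H3 of the prolyl 3-hydroxylase family stood at −1.58 ± 0.58 (adjusted p = 0.091). ADAMTS2 read at the floor on 2 of the 9 arrays, and P3H3 on 1, the truncated 24 h array at 2.544. At 48 h, 5 of the 24 fell, beside 3.32% of all genes. Leaving out the full-length, the truncated or the untreated series gave 6, 4 and 6 falls in this list at 24 h and 1, 2 and 3 at 48 h. The LOXL1 call at 24 h ended in each of these cases (adjusted p = 0.15, 0.2 and 0.073), as did that of ADAMTS2 at 48 h (adjusted p = 0.15, 0.065 and 0.08).

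Of 22 matrix receptor genes, all of those on the array, 5 fell and 1 rose at 24 h; their median was −0.30. MRC2, an endocytic receptor for collagen, fell by 1.47 ± 0.28 (limma adjusted p = 0.0016), ITGA10, the alpha chain of a collagen-binding integrin, by 1.44 ± 0.29 (adjusted p = 0.0023), and ITGA8, a chain that pairs in an RGD-binding integrin, by 1.24 ± 0.39 (adjusted p = 0.045). ITGA9 stood at −1.33 ± 0.70 (adjusted p = 0.26), with 1 of the 9 arrays at the floor, the untreated 24 h array at 1.313. The 1 gene that rose was ITGA2, named here after its value was seen, at 0.61 ± 0.15 (adjusted p = 0.011); it too is an alpha chain of a collagen-binding integrin. At 48 h, 1 of the 22 fell, which is near the 3.32% of all genes. When the full-length, the truncated or the untreated series was left out, 3, 2 and 4 fell at 24 h and 2, 1 and 1 at 48 h. The ITGA8 call ended in each of these cases (adjusted p = 0.3, 0.061 and 0.19), and that of ITGA2 without the truncated or the untreated series (adjusted p = 0.15 and 0.07).

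Of 24 genes of other matrix proteins above the filter (29 on the array), 11 fell and 0 rose at 24 h; their median was −0.74. The list mixes interstitial and basement membrane proteins, and 4 of the 11, named after their values were seen, are the basement membrane genes NID1, NID2, LAMB1 and LAMC1, at −0.98, −0.79, −0.89 and −0.82 (limma adjusted p = 0.00024, 0.0065, 0.0099 and 0.0017). The calls of LAMB1 and NID2 ended without the full-length series (adjusted p = 0.069 and 0.054) and without the truncated series (adjusted p = 0.23 and 0.085), and that of LAMB1 also without the truncated 24 h array (adjusted p = 0.12). EMILIN1, an elastic fibre glycoprotein, fell by 1.27 ± 0.19 (limma adjusted p = 0.0002) and SVEP1, a large adhesive matrix protein, by 1.94 ± 0.53 (adjusted p = 0.021). FBN1, a microfibril protein, stood at −1.59 ± 0.55 (adjusted p = 0.067) and HSPG2, a basement membrane proteoglycan, at −1.31 ± 0.76 (adjusted p = 0.32). HSPG2 read at the floor on 1 of the 9 arrays. With the full-length, the truncated or the untreated series left out, 5, 8 and 9 fell at 24 h and 3, 3 and 4 at 48 h, and the SVEP1 call at 24 h ended in each case (adjusted p = 0.058, 0.11 and 0.16). Without the variance trend, no gene of the 4 lists was called at either time, and with no filter on low signals the falls at 48 h in the 4 lists were 1, 0, 0 and 0, in the order given here. At 48 h 5 of the 24 fell, with a median of −0.43, beside 3.32% of all genes. No gene of the 4 lists passed in a construct comparison (limma), nor did many of all genes, with 0.00724% lower for full-length against untreated, 0.0362% lower for truncated against untreated and 0.0217% higher for full-length against truncated.

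**Figure D4:**
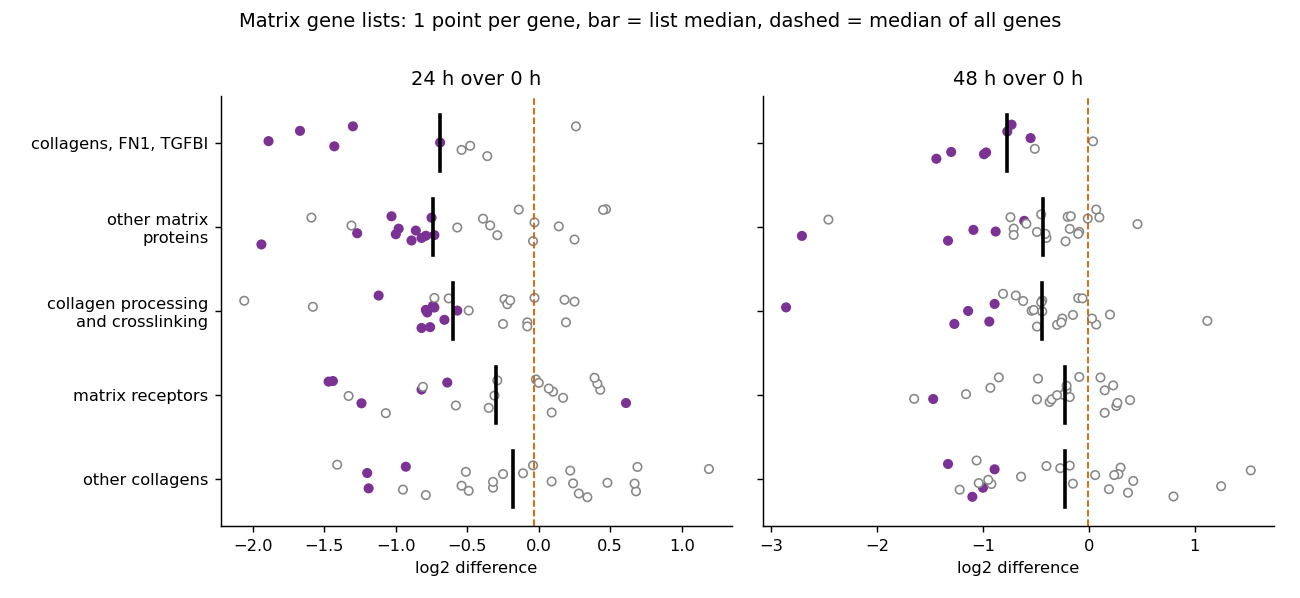
Log2 difference at 24 h (left) and 48 h (right) over 0 h of each gene above the filter, for the matrix genes described here and the 4 lists, with filled points for genes past the test, bars at list medians and a dashed line at the median of all genes. At 24 h the lists of processing enzymes and other matrix proteins have medians of −0.60 and −0.74, against −0.18 for the other collagens.

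The 5 genes whose 9 signals followed the mean course of the 9 matrix genes most closely were C1R, a complement protease (Pearson r = 0.975), PCOLCE (r = 0.973), ZNF692 (r = 0.972), FBLN1, a fibulin of the matrix (r = 0.969), and CORO2A (r = 0.969). The 9 arrays share scaling and series, 8439 genes were compared, and 91 of them, 1.1%, had an r over 0.9, so this is a description only.

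Markers of neuroblastoma cells were checked against the label: VIM, PRRX1 and CD44 were among 7 of 8 mesenchymal markers above the filter and GATA3, ISL1 and CHGA among 5 of 7 sympathetic ones on the array, while TH and DBH were under the filter. Of the 7 mesenchymal markers, 2 rose and 1 fell at 24 h (limma), and of the 5 sympathetic ones 0 rose and 0 fell. Of all genes, 7.31% rose and 7.27% fell. All 7 fibroblast and stromal markers were above the filter. Of these, 4 fell at 24 h, LUM, DCN, PDGFRA and PDGFRB, where 7.27% of all genes fell. ACTA2, THY1 and TAGLN did not pass, at −0.04, −0.25 and 0.11 (limma adjusted p = 0.95, 0.47 and 0.95). The summed signal of all 7 was 6790 to 7900 at 0 h, 3950 to 4890 at 24 h and 5620 to 5940 at 48 h, and the part of these markers in the result was not tested. DCN, read by an uncertain _x_at probe set, and LUM also stand in the list of other matrix proteins. The LUM call ended without the full-length series (adjusted p = 0.072) and that of DCN without the full-length or the untreated series (adjusted p = 0.055 and 0.1). Of 5 epithelial markers, EPCAM, CDH1 and KRT19 were under the filter, while KRT18, at a mean signal of 4270, and KRT8, at 136, were above it. The summed epithelial signal, most of it from KRT18, was 2540 to 3850 at 0 h, 3490 to 4440 at 24 h and 5640 to 6310 at 48 h. The ranges at 0 and 24 h overlapped, and only the sum at 48 h lay above all 0 h arrays, the other way from the matrix genes. No epithelial marker passed the test at 24 h, and the part of these markers in the result was not tested. The 3′ to 5′ signal ratio of ACTB, a sign of RNA quality, was 2.25 to 4.19 at 0 h, 2.45 to 3.63 at 24 h and 2.49 to 3.47 at 48 h, ranges that overlap. The truncated 24 h array stood slightly apart, with a median correlation of 0.884 to the other arrays, against 0.897 to 0.912 for the rest. The median signal of this array was 42.67, against 30.87 to 36.97 on the others. Of its probe sets 21.9% were at the floor, against 24.3% to 26.9% on the others. Without this array 11 matrix probe sets fell at 24 h.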

How the data were processed

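RNA of SK-N-AS cells was measured on 9 Affymetrix arrays, 1 for each series and time. The deposited values are linear signal intensities, and the submitters' processing notes name GCOS as the authors' software, with a version not given in the sources used. After trimming 2% at each end, all arrays had the same mean, so the authors' scaling was kept. Their median signals still differed, from 30.87 to 42.67. Of 54675 probe sets, 62 are controls; 41091 name 1 gene, 1801 several and 11721 none.

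A floor at the 25th percentile (signal 8.266) was set before log2, and probe sets with a mean log2 signal above 4.2 were tested (32768). limma 3.58.1 in R 4.3.3 (lmFit and trended eBayes, two-sided tests) gave p-values adjusted by Benjamini-Hochberg over all of them, called under 0.05. Intervals cover 95%. The time model held series and time (4 residual degrees of freedom). The construct model added each construct at 24 and 48 h, taken as repeated readings (2 residual degrees of freedom, which are not replicate cultures). The scripts were tested on simulated data. The number of arrays limits the precision.

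The brightest probe set stands for a gene, with the brightest not ending in _x_at beside it where needed. From each list, the 4 genes of largest absolute difference at 24 h were named, and the 5 genes of highest correlation. The members and lists were chosen with earlier results of these data known.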

Additional observations from a re-analysis of the deposited data

Results flagged for a closer look

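In 3 dim probe sets of the matrix genes, both later arrays of one series lay on the other side of the 0 h array than both later arrays of another, on the log2 scale. In each, 2 or 3 of the 9 arrays read at the floor. COL6A1 (212937_s_at) stood at 2.23 at 24 h and 0.37 at 48 h over 0 h with full-length NRSF, and at −2.76 and −1.40 with truncated NRSF. FN1 (1558199_at) stood at −0.12 and −0.21 with full-length NRSF, at 1.36 and 2.29 with truncated NRSF, and at −0.11 and −1.55 in untreated cells. FN1 (214701_s_at) stood at −0.68 and −2.28 with truncated NRSF and at 1.63 and 2.0 in untreated cells.

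In the limma construct fit, which takes 24 and 48 h as repeated readings, none of these differences passed. Full-length against truncated gave 3.38 ± 1.91 for COL6A1 (SE, adjusted p = 0.91) and −1.99 for FN1 1558199_at (adjusted p = 0.95). Truncated against untreated gave 2.66 ± 1.64 for FN1 1558199_at (adjusted p = 0.85) and −3.29 ± 1.70 for FN1 214701_s_at (adjusted p = 0.81). The bright probe sets of both genes did not show such opposed courses.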

How the results depend on the processing

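Main counts were 12 of 27 matrix probe sets lower at 24 h and 13 at 48 h. With no filter on low signals they were 7 and 4 (of 37), and without the variance trend 4 and 0. With the brightest probe set of each gene 5 and 7 of 9 genes fell, and averaging the probe sets of a gene gave 4 and 1 of 9. Leaving out each series in turn gave 11 in every case at 24 h, 8 to 10 at 48 h (8 without the truncated series) and 0 to 1 between 48 and 24 h. With no replicate block (no series term) 11 fell at each time; the labels give each group 1 array, so no other pairing was possible. Quantile normalization, log2(signal + 16) with no floor, a floor at the 40th percentile and a filter at the 60th left 12 and 13, and without _x_at probe sets there were 8 and 10 of 22. The construct comparisons gave 0 calls under every alternative run. Over 1575 values of the matrix probe sets, 0 called values changed sign, 53 uncalled ones did, 61 lost a call and 3 gained one. Without the trend, the 24 h calls kept were TGFBI (adjusted p = 0.045) and FN1 211719_x_at, 216442_x_at and 212464_s_at (0.048 each), and COL3A1 (0.062), COL6A3 (0.087) and COL1A1 (0.15) were lost. Of all probe sets tested, 3757 were called at 24 h and 1789 at 48 h, against 1298 and 98 with no filter and 243 and 3 without the trend. Without the full-length, the truncated or the untreated series, 1847, 2003 and 2433 were called at 24 h and 613, 899 and 821 at 48 h.
The numbers of genes called lower at 24 h in the lists of other collagens, processing genes, receptors and other matrix proteins were 3, 9, 5 and 11, against 2, 3, 2 and 4 with no filter and 0, 6, 3 and 8 with the probe sets of a gene averaged. At 48 h they were 4, 5, 1 and 5, against 1, 0, 0 and 0 with no filter and 1, 4, 1 and 5 with probe sets averaged, and 0 in each list at both times without the trend.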
